A study of Mus musculus with 12 samples.

Results

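The 3 libraries described here are the untreated, wild-type (WT) libraries of a bulk RNA-seq series of 12 libraries from mouse bone marrow-derived dendritic cells (BMDC). They were chosen by their group alone, so that no measured value entered the choice. They are described as untreated cells, with no contrast to the treated libraries, and how mature these cells were was not tested. The cells came from C57BL/6 mice that carried CreER, a tamoxifen-inducible Cre recombinase placed at the Rosa26 locus, with both Ctcf alleles intact. Bone marrow was kept in murine GM-CSF for 6 days with fresh medium every 2 days, and neither lipopolysaccharide (LPS) nor the NF-κB inhibitor JSH-23 was given to this group. The labels name no age or sex for these mice, and the methods name adult mice of both sexes. The labels call the cells dendritic cells, and the methods select CD11c-positive cells from such cultures on magnetic beads. In the study, 4-hydroxytamoxifen was used to delete floxed Ctcf, and the sources used here do not settle whether these WT cultures had received it.

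GM-CSF is a cytokine that signals through a specific alpha chain and a shared beta chain to JAK2 and STAT5, and that drives bone marrow precursors towards monocyte-derived dendritic cells and macrophages. Dendritic cells take up antigen, cut it into peptides and show these to T cells on MHC class I and class II molecules. At rest they carry many receptors for microbial products, and on maturation they raise MHC, co-stimulatory ligands and the chemokine receptor that leads them to lymph nodes.

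Levels are given as TPM, which divide the expected counts of a gene by its effective length and scale each library to the same total, so that genes can be compared with each other. Each library held between 26497569 and 32559096 expected counts over 55335 listed genes. A gene was called detected where it reached 1 TPM in all 3 libraries, and by that measure 10653 of 21899 annotated protein-coding genes were detected (48.6%). The median detected protein-coding gene stood at 18.2 TPM, 1360 genes reached a mean of 100 TPM and 131 reached 1000. Replicate 5, the deepest library, stood a little apart, with lower Ccr7, Fscn1 and Ccl22 and higher Lyz2 and Prdx1 than the other 2 libraries, and its part in the spread is given in values beside the results. Lists of marker, receptor, secreted and metabolic genes held 714 genes that could be matched, of which 575 were detected (80.5%). Values are the mean ± SD over 3 libraries (n = 3), and where 3 values stand in a row they are replicates 4, 5 and 6. The methods name biological replicates, and the labels do not say whether these came from separate mice or cultures. Some genes beyond the 4 highest of a list were chosen for mention after their values were seen, and 38 symbols stand on more than 1 list.

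The RNA of untreated WT BMDC was led by a small set of genes for iron storage, actin, lysosomes, antigen presentation and chemokines. In each library, between 220 and 225 genes together held 50% of all TPM. The 20 most abundant nuclear protein-coding genes held 16.4% ± 0.0804 of TPM and the top 100 held 29.3% ± 0.181. Fth1, the heavy chain of the iron-storage protein ferritin, was the highest of these nuclear genes in every library with 21113, 21916 and 21917 TPM. Ftl1, the ferritin light chain, stood at 15026, 15226 and 15146 TPM, so that heavy chain exceeded light chain 1.43 ± 0.0224-fold. These 2 genes sat on chromosome 19 (9980598 to 9985098) and chromosome 7 (45457944 to 45459884) of GRCm38.

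Actin and its monomer-binding partner followed. Tmsb4x, thymosin beta 4, which holds actin monomers, had 16652, 16392 and 16377 TPM, and Actb, cytoplasmic beta-actin, had 10573, 10483 and 10652 TPM. Actg1, gamma-actin, had 4831, 4730.4 and 4795 TPM. Its range did not reach that of Actb in any library.

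Among the genes that mark the cell type, Lyz2, the lysozyme of myeloid cells, had 14631, 15376 and 14814 TPM and Cd74, the invariant chain that guides MHC class II, had 14041, 13951 and 14374 TPM. The class II chain H2-Aa had 4632, 4611 and 4692 TPM and H2-Eb1 had 3789.8, 3688 and 3848 TPM. B2m, the light chain of MHC class I, had 6634, 6705 and 6570.1 TPM. Psap, the precursor of the saposins of the lysosome, had 5922 ± 109 TPM and Cst3, an inhibitor of cysteine proteases, had 3922 ± 187 TPM. Prdx1, a peroxidase that removes hydrogen peroxide, had 5595 ± 314 TPM and the translation factor gene Eef1a1 had 4801 ± 69.6 TPM.

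Chemokine genes with no stimulus given were part of the same top set. Ccl5, a chemokine that draws T cells and monocytes, had 12294, 12228 and 12309 TPM with the smallest spread of the top 20 (coefficient of variation 0.35%). Among protein-coding genes of effective length of 200 bases or more, each as listed, it was 7th in all 3 libraries. In that set it came 9th by mean once the mitochondrial genes were summed with the copies described further on. Ccl22, a ligand of CCR4, a chemokine receptor of T cells, had 5299, 4925 and 5314 TPM. The 3 Ccl22 values lay below every Ccl5 value, and Ccl5 exceeded Ccl22 by 2.37 ± 0.0950-fold.

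**Figure D1:**
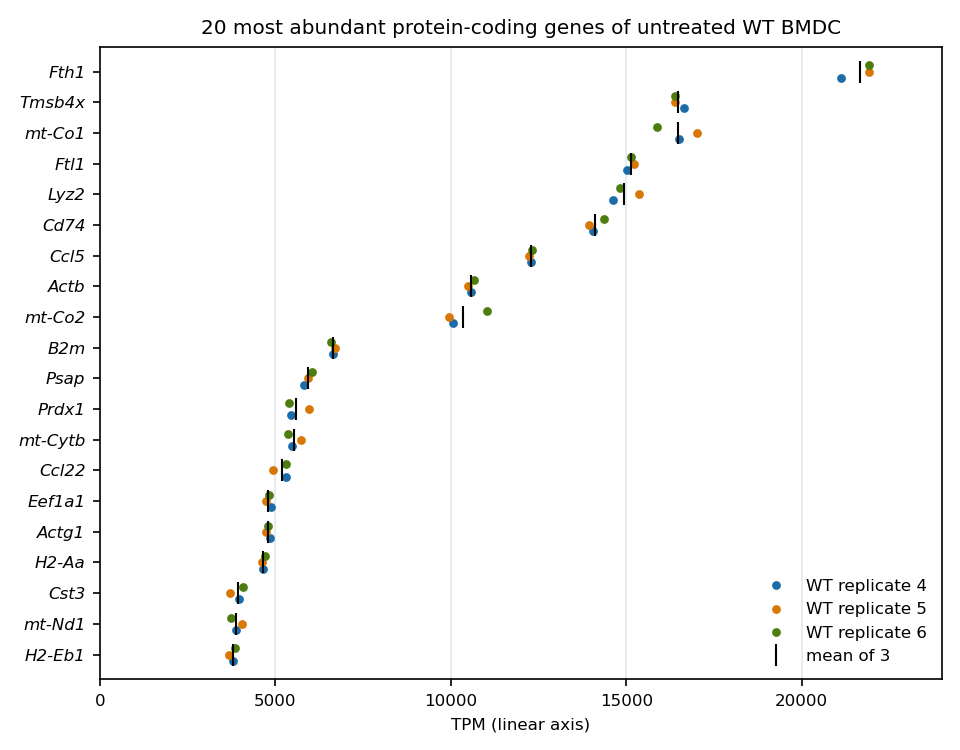
Levels of the 20 most abundant protein-coding genes of effective length of 200 bases or more in untreated WT BMDC, in TPM on a linear axis, with 1 point for each of the 3 libraries and a bar for the mean. Each gene is plotted as the table lists it, so mt-Co1 and mt-Co2 do not include their chromosome 1 copies, and Fth1 stood apart at 21648 TPM.

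The order of the top 20, with each gene taken as the table lists it, was only partly resolved. Of the 19 pairs of neighbours in this order, 8 had ranges that overlapped, among them Tmsb4x and mt-Co1, Ftl1 and Lyz2, and Psap and Prdx1. Of the 20 genes, 6 held the same rank in every library.

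Mitochondrial genes filled another 4 of the 20 places, and their levels depended on copies elsewhere in the genome. mt-Co1 and mt-Co2, subunits of cytochrome c oxidase, had 16494, 17029.7 and 15862 TPM and 10073, 9954 and 11044 TPM. mt-Cytb, a subunit of respiratory complex III, had 5523 ± 180.4 TPM and mt-Nd1, a subunit of complex I, had 3882 ± 161 TPM. The highest non-coding genes of effective length of 200 bases or more were Gm10925 with 10960.3, 11485 and 11157 TPM, Gm28437 with 8229.8 ± 108 TPM, Gm28661 with 5106 ± 989 TPM and Gm29216 with 4352 ± 146 TPM, ahead of mt-Rnr2, the large mitochondrial ribosomal RNA, with 3076 ± 29.0 TPM. The first 4 are annotated as unprocessed pseudogenes and lie together with Gm10222 and Gm28438 on the minus strand of chromosome 1 between 24612407 and 24616197.

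These 6 pseudogenes are copies of mitochondrial genes, and a read pair from 1 source can fit both places. In the GENCODE M21 transcripts, all 678 bases of Gm10925 were identical to mt-Atp6, all 783 of Gm28437 to mt-Co3, all 681 of Gm28661 to mt-Co2 and all 294 of Gm10222 to mt-Nd4l. Gm28438 differed from mt-Nd3 at 1 of 345 bases (T3C, counted from 1 at the 5′ end of mt-Nd3). Gm29216, of 492 bases, matched mt-Co1 at 482 of 483 aligned bases and differed at A1066T. The bases of Gm29216 before base 10 lay outside the alignment and were not compared. The following sequences, from the GENCODE M21 transcripts on GRCm38, show the first 60 bases of Gm10925, the copy of highest level, beside mt-Atp6, and the stretch around each mismatch, 5′ to 3′, with the mismatched base in capitals.
mt-Atp6: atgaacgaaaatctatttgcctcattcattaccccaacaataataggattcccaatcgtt
Gm10925: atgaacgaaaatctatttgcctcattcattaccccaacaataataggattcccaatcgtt
mt-Nd3: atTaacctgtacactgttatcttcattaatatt
Gm28438: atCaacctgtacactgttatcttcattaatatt
mt-Co1: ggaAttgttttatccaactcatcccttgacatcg
Gm29216: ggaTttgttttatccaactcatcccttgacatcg

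The deposited table gave most of a shared signal to the copy in 4 of the 6 pairs. Gm10925 held 87.2% of the summed TPM of its pair, Gm28437 held 83.3%, Gm28438 held 74.6% and Gm10222 held 73.9%, while Gm28661 held 33.0% and Gm29216 held 20.9%. For mt-Atp6 the table listed 1741, 1858 and 1343 TPM, a coefficient of variation of 16.4%, whereas the sum with Gm10925 was 12701, 13344 and 12501 TPM, with 3.43%. The sum of mt-Co2 and Gm28661 varied by 3.00%, against 5.77% for mt-Co2 and 19.4% for Gm28661 alone. The levels of the single genes in these pairs are therefore uncertain, and so are their places in the order above. By the sums, mt-Co1 stood at 20814 ± 493 TPM, mt-Co2 at 15463 ± 464, mt-Atp6 at 12848 ± 440.3 and mt-Co3 at 9875 ± 168 TPM. Gm29216 covers only part of mt-Co1, with a mean effective length of 243 against 1293 bases. It had 21089 mean expected counts against 426642 for mt-Co1, so its share of TPM exceeds its share of counts. The summed mt-Co1 is therefore an upper value. By that value mt-Co1 lay above Tmsb4x in every library, and the summed mt-Co2 and mt-Atp6 lay above Ccl5.

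A short gene added a further distortion. mt-Atp8, an ATP synthase subunit with an effective length of only 14.97 to 16.09 bases, was listed with 23826, 24782 and 22302 TPM, above Fth1, although it took 0.0246% ± 0.00208 of the expected counts. It was left out of the top 20 for that reason. The 13 mitochondrial protein genes and the 6 copies held 11.2% ± 0.395 of TPM but 3.96% ± 0.133 of expected counts, and the mitochondrial ribosomal RNAs held 0.530% ± 0.00408 of TPM. The 79 genes of cytoplasmic ribosomal proteins were all detected, against 48.6% of all protein-coding genes, and held 8.38% ± 0.190 of TPM.

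Most genes of antigen presentation were high. A mean of 100 TPM or more was reached by 8 of 11 class II genes, against 1360 of 21899 protein-coding genes. All 11 genes of the MHC class II list were detected, against 48.6% of protein-coding genes, with a summed level of 29938 TPM. H2-Ab1, the class II beta chain, had 3583, 3537 and 3648 TPM, and H2-Aa exceeded it by 1.29 ± 0.00888-fold. Ctss, cathepsin S, which trims the invariant chain, had 3101 ± 47.9 TPM. Ciita, the master regulator of class II genes, had 149, 145 and 148 TPM. The peptide-loading chains H2-DMa and H2-DMb1 had 234 ± 5.33 and 234 ± 3.45 TPM, and H2-Ob, part of the inhibitor of that step, had 5.55 ± 0.474 TPM. All 12 MHC class I genes were detected too, led by B2m, H2-K1 with 3643 ± 80.5 TPM, H2-D1 with 1976 ± 68.8 TPM and the loading factor Tapbp with 786 ± 15.3 TPM. H2-K1 and H2-D1 share 90.3% of aligned transcript bases, so part of their reads was divided by estimate.

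Of 18 dendritic cell genes, 17 were detected (94.4%, against 48.6% of all protein-coding genes). Itgax, which encodes CD11c and is the marker used for the bead selection, had 313, 331 and 307 TPM. Ccr7, the receptor that leads dendritic cells to lymph nodes, had 1282, 1132 and 1260.4 TPM, and Fscn1, the actin-bundling protein fascin of mature dendritic cells, had 1241, 1069.9 and 1266 TPM. In both genes replicate 5 was the lowest library. Id2, a regulator of dendritic cell development, had 664 ± 4.16 TPM. Irf8 had 395 ± 22.3 TPM and Irf4 44.1 ± 3.48 TPM, both transcription factors of dendritic cell subsets, and Irf8 exceeded Irf4 by 8.96 ± 0.324-fold. Zbtb46, a factor of conventional dendritic cells, had 25.2, 21.3 and 23.9 TPM. Flt3, the receptor CD135, had 3.42, 2.58 and 2.83 TPM, and Cd209a, a lectin of monocyte-derived dendritic cells, was the one gene below 1 TPM, with 0.04, 0.08 and 0 TPM.

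Macrophage and monocyte genes were detected beside them, 15 of 18 (83.3%, against 48.6% of all protein-coding genes). C1qb, a chain of complement component C1q, had 972, 1025 and 1019.6 TPM, with C1qa at 279 ± 12.0 and C1qc at 330.0 ± 4.68 TPM. Csf1r, the receptor CD115 for M-CSF, had 479, 508 and 497 TPM and Ly6c2, an antigen of inflammatory monocytes, had 427, 430.4 and 445 TPM. Adgre1, which encodes F4/80, had 145 ± 3.69 TPM and the uptake receptor Mertk had 23.6 ± 0.72 TPM. The tissue-macrophage genes Timd4 and Cd163 had 0.09 ± 0.0265 and 0.0667 ± 0.0416 TPM, and Vsig4 was at 0 in all 3 libraries, which allows up to 0.25 TPM at 3 counts in a library. In bulk RNA, a few cells of a type and a low level in every cell cannot be told apart, so these lists do not give a composition.

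Genes of other dendritic cell subsets were mostly low. Of 7 cDC1 genes 4 were detected (57.1%, near the 48.6% of all protein-coding genes), namely Naaa with 90.6 ± 1.25 TPM, Tlr3 with 18.0 ± 1.81, Wdfy4 with 14.1 ± 1.45 and Clec9a, a receptor for dead cells, with 1.64, 3.50 and 3.67 TPM. The defining chemokine receptor Xcr1 had 0.9, 0.9 and 1.01 TPM, and Itgae and Cadm1 had 0.23 ± 0.0608 and 0.187 ± 0.139 TPM. Of 10 plasmacytoid genes 5 were detected (50%, also near that share), and Bst2, which interferon also raises in other cells, made up 94.2% of their sum with 913 ± 19.4 TPM. Tcf4, the transcription factor of plasmacytoid cells, had 27.0 ± 1.01 TPM, and Runx2, Pacsin1 and Ccr9 had 18.3 ± 1.10, 6.18 ± 0.52 and 3.78 ± 0.509 TPM. Cd300c, Ly6d, Klk1 and Cox6a2 were below 1 TPM in every library. Siglech, the defining lectin of plasmacytoid cells, was at 0 in every library, which allows up to 0.124 TPM.

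Neutrophil genes were detected about as often as protein-coding genes in general (57.1% against 48.6%). The eosinophil list and the mast cell and basophil list were detected less often (28.6% and 18.2%). Mmp8, neutrophil collagenase, had 161, 172 and 161 TPM, S100a9 and S100a8, the calprotectin chains of neutrophils and monocytes, had 93.8 ± 12.7 and 85.8 ± 0.928 TPM, and the granule gene Ngp had 20.2 ± 0.998 TPM. The neutrophil surface antigen Ly6g had 1.03, 0.2 and 0 TPM, and the early granule genes Elane, Prtn3 and Ctsg had 0.297 ± 0.0987, 0.647 ± 0.538 and 0.0867 ± 0.0379 TPM. Retnlg and the chemokine receptor gene Cxcr2 were below 1 TPM in every library. The whole list of 14 had 8 detected genes and a sum of 392 TPM. Of 7 eosinophil genes only Ear2, a ribonuclease also made by macrophages, with 68.6 ± 5.4 TPM, and Siglecf, with 1.34 ± 0.08 TPM, were detected, while Prg2 and Ear6 had 1.18 ± 0.643 and 1.16 ± 0.283 TPM. The granule peroxidase gene Epx had 0.08 ± 0.0265 TPM, and Ear1 and Ccr3 were likewise below 1 TPM in every library. Of 11 mast cell and basophil genes 2 were detected, Hdc with 10.8 ± 1.44 TPM, the enzyme that makes histamine, and Kit with 2.76 ± 0.452 TPM. Prss34, a basophil protease, had 1.32 ± 0.387 TPM and Gata2 had 0.67 ± 0.0557 TPM. Mcpt8, Cpa3, Ms4a2 and Fcer1a, the last a chain of the IgE receptor, were below 1 TPM in every library, and the proteases Mcpt4, Cma1 and Tpsb2 were at 0.

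Lymphoid, erythroid and stromal genes were mostly not detected. The detected ones were 2 of 7 T cell, 1 of 6 B cell and 1 of 7 NK cell genes, against 48.6% of all protein-coding genes. No erythroid or stromal gene on the lists was detected. The sum of a list was 8.74 TPM for 7 T cell genes, 5.44 TPM for 6 B cell genes, 4.40 TPM for 7 NK cell genes, 0.0867 TPM for 8 erythroid genes and 1.03 TPM for 6 stromal genes. The 4 hemoglobin genes on the list and Alas2 were at 0 counts in all 3 libraries, Klf1 had 0.0767 ± 0.0666 TPM and Epor 0.01 ± 0.0173 TPM. All 6 stromal genes were below 1 TPM in every library, with Pdgfrb at 0.763 ± 0.179, Cxcl12 at 0.24 ± 0.0265, Dcn at 0.0233 ± 0.0404 and the collagen gene Col1a1 at 0.00333 ± 0.00577 TPM, and with Col1a2 and Col3a1 lower or equal. Cd247, a signalling chain of the T cell receptor, had 4.17 ± 0.742 TPM and Cd3e, a defining chain of the same receptor, had 0.113 ± 0.107 TPM. Lck, a T cell kinase, had 1.74 ± 0.527 TPM, Thy1 had 1.27 ± 0.798 TPM, and Trac, Cd3d and Cd3g were below 1 TPM in every library. Ighm, the IgM heavy chain, had 5.01 ± 0.119 TPM. The B cell genes Cd79b, Cd79a, Ms4a1 and Pax5 were below 1 TPM in every library. Among NK cell genes, the receptor chain Klrd1 had 3.93 ± 0.248 TPM, and Gzmb, Gzma, Klrb1c, Ncr1, Eomes and Prf1 were below 1 TPM in every library. Ppbp, a platelet chemokine that monocytes also make, had 59 ± 3.96 TPM while Itga2b had 0.987 ± 0.862, Itgb3 0.377 ± 0.0462 and Gp1ba 0.32 ± 0.04 TPM, with Gp9 lower. Of the progenitor genes, Sox4 had 7.70 ± 0.626 TPM, Gfi1b had 2.75 ± 1.30 TPM and Myb had 0.93 ± 0.155 TPM. Meis1 and Cd34 were below 1 TPM in every library, and Hoxa9 was at 0.

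**Figure D2:**
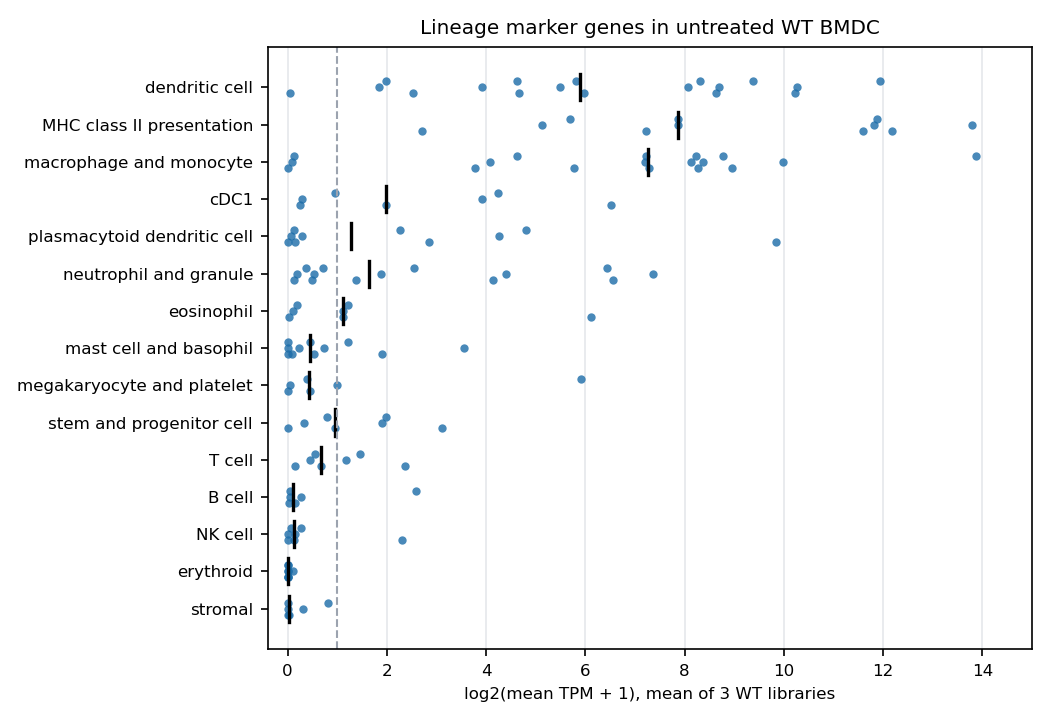
Levels of lineage marker genes in untreated WT BMDC as log2(mean TPM + 1) over 3 libraries, with 1 point for each gene, a bar for the median of the list and a dashed line at 1 TPM. The MHC class II, macrophage and monocyte, and dendritic cell lists had their medians far above the line, and the B cell, NK cell, erythroid and stromal lists had theirs near 0.

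Transcription factor genes of the myeloid line were detected in 25 of 26 cases (96.2%, against 48.6% of all protein-coding genes). Spi1, which encodes PU.1, had 414, 408 and 434 TPM and Irf5, a factor downstream of Toll-like receptors, had 353, 369 and 366 TPM. Bhlhe40, a factor of activated myeloid cells, had 313 ± 12.8 TPM. The NF-κB genes were all detected in the absence of stimulus, with Nfkb1 at 242 ± 5.48, Nfkb2 at 217 ± 8.81, Relb at 267 ± 12.6, Rela at 109.7 ± 2.84 and Rel at 79.4 ± 3.77 TPM. Ctcf, the chromatin-loop factor whose gene is intact in these cells, had 37.0, 33.6 and 37.5 TPM, and Spi1 exceeded it by 11.6 ± 0.483-fold. Nr4a1, an early response gene of signalling, was the one factor below 1 TPM, with 0.617 ± 0.0666 TPM.

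The receptor for the cytokine in the medium was abundant. Csf2rb, the shared beta chain, had 1013, 978 and 1029 TPM, and Csf2ra, the GM-CSF-specific alpha chain, had 475, 482 and 498 TPM, a ratio of 2.08 ± 0.0529. Csf2rb2, a beta chain that serves IL-3 alone in mice, had 540.5, 530.2 and 546 TPM. The transcripts of Csf2rb and Csf2rb2 share 91.2% of 4635 aligned bases, and all 3 libraries have fractional counts for both, so their split rests on the estimate of the authors' software. Csf1r lay close to Csf2ra, with overlapping ranges and a ratio of Csf2ra to Csf1r of 0.981 ± 0.0278. Downstream, the kinase gene Jak2 had 363 ± 13.5 TPM, and Stat5a exceeded Stat5b by 3.70 ± 0.180-fold, with 86.3 ± 1.33 against 23.4 ± 0.811 TPM. Of the targets of STAT5, Pim1 had 186 ± 8.90 TPM and the feedback inhibitor Cish 5.25 ± 0.288 TPM. Tnfrsf1b, the second TNF receptor, had 688 ± 13.5 TPM. Il1r1, the signalling receptor for IL-1, had 0.45, 0.37 and 0.4 TPM and was the one gene of the list below 1 TPM. Of the 26 genes on that list 25 were detected (96.2%, against 48.6% of all protein-coding genes).

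Of 12 Toll-like receptor genes 11 were detected (91.7%, against 48.6% of all protein-coding genes), in a steep order. Tlr2, which senses bacterial lipoproteins, had 153, 159 and 156 TPM and its partner Tlr1 had 127, 139 and 130.4 TPM. Tlr9, for unmethylated DNA, and Tlr13, for bacterial ribosomal RNA, followed with 65.0 ± 0.447 and 64.5 ± 3.30 TPM, and their ranges overlapped. Tlr4, the receptor for LPS, had 18.0, 18.5 and 16.8 TPM, so that Tlr2 exceeded it 8.79 ± 0.449-fold. Tlr3, for double-stranded RNA, had 18.0 ± 1.81 TPM, and its range overlapped that of Tlr4. Tlr5, the flagellin receptor, had 0.12, 0.13 and 0.15 TPM and was the one member not detected.

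Several accessory genes of LPS sensing lay above the receptor itself. Cd14, which hands LPS to the receptor, had 298, 303 and 296 TPM, 16.9 ± 0.678-fold the level of Tlr4. Ly96, which encodes the LPS-binding partner MD-2, had 42.7, 40.2 and 36.9 TPM. The adaptor gene Myd88 had 145 ± 2.24 TPM and the kinase genes Irak2 and Irak1 had 75.7 ± 1.37 and 56.1 ± 2.58 TPM, while Lbp, the LPS-binding protein of serum made by liver, had 0.05, 0.89 and 0.42 TPM. All 14 genes of cytosolic sensing were detected, against 48.6% of all protein-coding genes. They were led by Zbp1, a sensor of Z-form nucleic acid, with 452, 452 and 453 TPM, and Casp1, the inflammasome protease, with 232 ± 7.69 TPM. The RNA sensors Ifih1 and Ddx58 had 205 ± 9.52 and 190.1 ± 9.94 TPM. Cgas, the DNA sensor, had 13.1 ± 0.235 TPM and its partner Tmem173, which encodes STING, had 94.2 ± 3.82 TPM.

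Uptake and adhesion receptors were detected widely. Clec4n, which encodes the fungal receptor Dectin-2, had 1258, 1326 and 1207 TPM, Clec4e, or Mincle, had 637 ± 28.9 TPM, Clec7a, or Dectin-1, had 633 ± 28.8 TPM and Clec4d had 234 ± 14.9 TPM. The mannose receptor gene Mrc1 had 12.7 ± 0.416 TPM. Tyrobp, the adaptor DAP12, had 705 ± 2.45 TPM, and the scavenger receptor genes Marco and Cd36 had 562 ± 5.26 and 516 ± 28.8 TPM. Axl, which binds apoptotic cells, had 553 ± 13.7 TPM, against 23.6 ± 0.72 for Mertk and 0.683 ± 0.112 for Tyro3 of the same family. Of the Fc receptor genes, the shared chain Fcer1g had 875 ± 18.4 TPM, and the inhibitory Fcgr2b and the activating Fcgr1 and Fcgr3 had 158 ± 2.43, 155 ± 1.76 and 146 ± 4.48 TPM, with Fcgr2b and Fcgr1 overlapping in range. Among integrins, Itgb2 had 539 ± 8.43 TPM and Itgb1 380.0 ± 9.69 TPM, and Itgax exceeded Itgam, which encodes CD11b (149 ± 3.29 TPM), by 2.12 ± 0.0564-fold.

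Chemokine receptors were detected in 10 of 20 cases, close to the 48.6% of all protein-coding genes. Ccr7 made up 77.9% of their summed 1573 TPM. It was followed by the non-signalling receptor Ccrl2 with 76.4 ± 3.50 TPM, Cxcr4 with 78.4, 63.4 and 70.5 TPM and Ccr2, the receptor of inflammatory monocytes, with 65.8, 73.2 and 66.4 TPM. Ccr2 was highest in replicate 5, the library in which Ccr7 was lowest, and Ccr7 exceeded Ccr2 by 15.5 to 19.5-fold. Cxcr1 was at 0 in every library.

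Co-stimulatory and inhibitory ligand genes stood side by side. Cd40, which receives the help of T cells, had 401, 395 and 407 TPM and Cd83, a maturation marker, had 268, 250.3 and 257 TPM. Cd274, which encodes the inhibitory ligand PD-L1, had 358, 367 and 347 TPM, and Lgals9, galectin-9, had 420.1, 429 and 431 TPM. Of the ligands of CD28, Cd86 had 128 ± 1.04 TPM and Cd80 had 38.8 ± 2.99 TPM, so that Cd40 exceeded Cd86 by 3.12 ± 0.0596-fold. Of the 14 genes 12 were detected (85.7%, against 48.6% of all protein-coding genes), and Cd276 and Tnfsf14 were not.

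**Figure D3:**
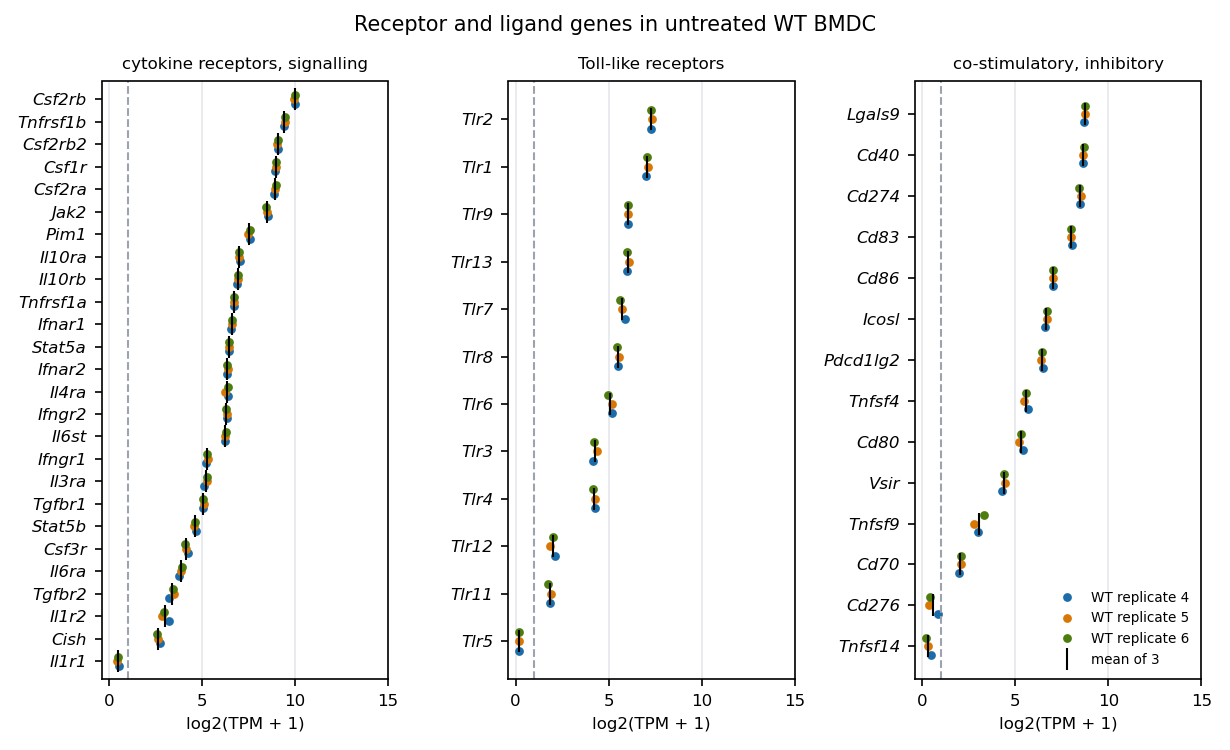
Receptor and ligand genes in untreated WT BMDC as log2(TPM + 1), with 1 point for each of 3 libraries, a bar for the mean and a dashed line at 1 TPM. Csf2rb led the first panel at 1007 TPM, Tlr4 stood 9th of 12 Toll-like receptors at 17.8 TPM, and Lgals9 and Cd40 led the last panel at 427 and 401 TPM.

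The 18 CC chemokine genes summed to 22744 TPM, and 5 of them held nearly all of it, namely Ccl5, Ccl22, Ccl6 with 1853, 1991 and 1898 TPM, Ccl17 with 1672, 1489 and 1626 TPM and Ccl9 with 1482, 1658 and 1485 TPM. Ccl17, like Ccl22, binds CCR4, and Ccl22 exceeded it by 3.25 ± 0.0712-fold. The next genes were more than 10-fold lower, with Ccl3 at 91.4 ± 3.13, Ccl4 at 62.2 ± 7.80 and the monocyte attractant Ccl2 at 33.9 ± 2.63 TPM. The 2 ligands of CCR7 on the list, Ccl19 and Ccl21a, were not detected, with 0.0667 ± 0.115 TPM and with 0 counts in any library. The genes Ccl11 and Ccl20 were also at 0.

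Of 16 CXC and other chemokine genes 12 were detected (75%, against 48.6% of all protein-coding genes). Cxcl3, a neutrophil attractant, had 725, 758 and 716 TPM and Cxcl16, a membrane-bound chemokine and scavenger receptor, had 732, 719 and 745 TPM, with overlapping ranges. Cxcl10, an interferon-inducible ligand of CXCR3, had 576, 650.2 and 633 TPM, and Pf4, which platelets and macrophages make, had 368 ± 12.8 TPM. The other 2 ligands of CXCR3, Cxcl9 and Cxcl11, had 21.8 ± 0.789 and 2.71 ± 0.24 TPM.

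Cytokine genes were lower by comparison. The highest was Il1rn, the antagonist of the IL-1 receptor, with 382, 397 and 364 TPM, 3.00 ± 0.159-fold above Il1b with 131, 124 and 125 TPM. Tnf had 119, 134 and 129 TPM and Tgfb1 had 116 ± 3.29 TPM. Il12b, the p40 chain that IL-12 and IL-23 share, had 121, 108 and 113 TPM, while the partner chains were low, with 4.46, 5.25 and 4.87 TPM for Il12a (p35) and 0.49, 0.4 and 0.41 TPM for Il23a (p19). Il12b exceeded Il12a by 20.6 to 27.1-fold. Il6 had 51.0, 43.1 and 42.9 TPM. Ebi3 had 96.0 ± 3.42 TPM and its partner chain Il27 had 10.2 ± 0.435 TPM. Il10, which restrains inflammation, had 0.81 ± 0.195 TPM and Ifnb1 had 1.2, 1.55 and 1.12 TPM, with all 3 values above 1.

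The cells had few transcripts of the growth factor they were cultured in. Csf2, which encodes GM-CSF, had 0, 0 and 0.2 TPM, at or below the 0.306 TPM that 3 counts in a library would give. Grn, the lysosomal and secreted progranulin, led the growth factor list with 692, 705 and 707 TPM, followed by Igf1 with 50.6 ± 1.10, Vegfa with 45.0 ± 4.62 and Pdgfb with 36.8 ± 1.65 TPM. Csf1, which encodes M-CSF, had 15.9 ± 1.12 TPM.

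Genes of a lysozyme and of several proteases were abundant. Besides the lysozyme gene Lyz2 and the protease gene Ctss, the cathepsin genes Ctsz, Ctsd and Ctsb had 1973 ± 24.5, 1843 ± 32.9 and 1778 ± 19.6 TPM. Mmp12, macrophage elastase, had 1724, 1878 and 1713 TPM, while Mmp9 had 4.31 ± 0.268 TPM. Lyz1, the lysozyme of Paneth cells, had 2.6, 2.07 and 3.15 TPM although its transcript shares 96.0% of aligned bases with Lyz2, so its level rests on how shared reads were divided. Among complement genes, C1qb was followed by factor B (Cfb, 803 ± 22.2 TPM) and C3 (676 ± 8.03 TPM), whereas C4b and Cfd were not detected, with 0.04 ± 0.0529 TPM and 0 counts. Of other secreted proteins Lgals3, galectin-3, had 2376, 2466 and 2502 TPM, Saa3, an acute-phase serum amyloid, had 2211, 2163 and 2137 TPM and S100a4 had 1721 ± 31.5 TPM.

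**Figure D4:**
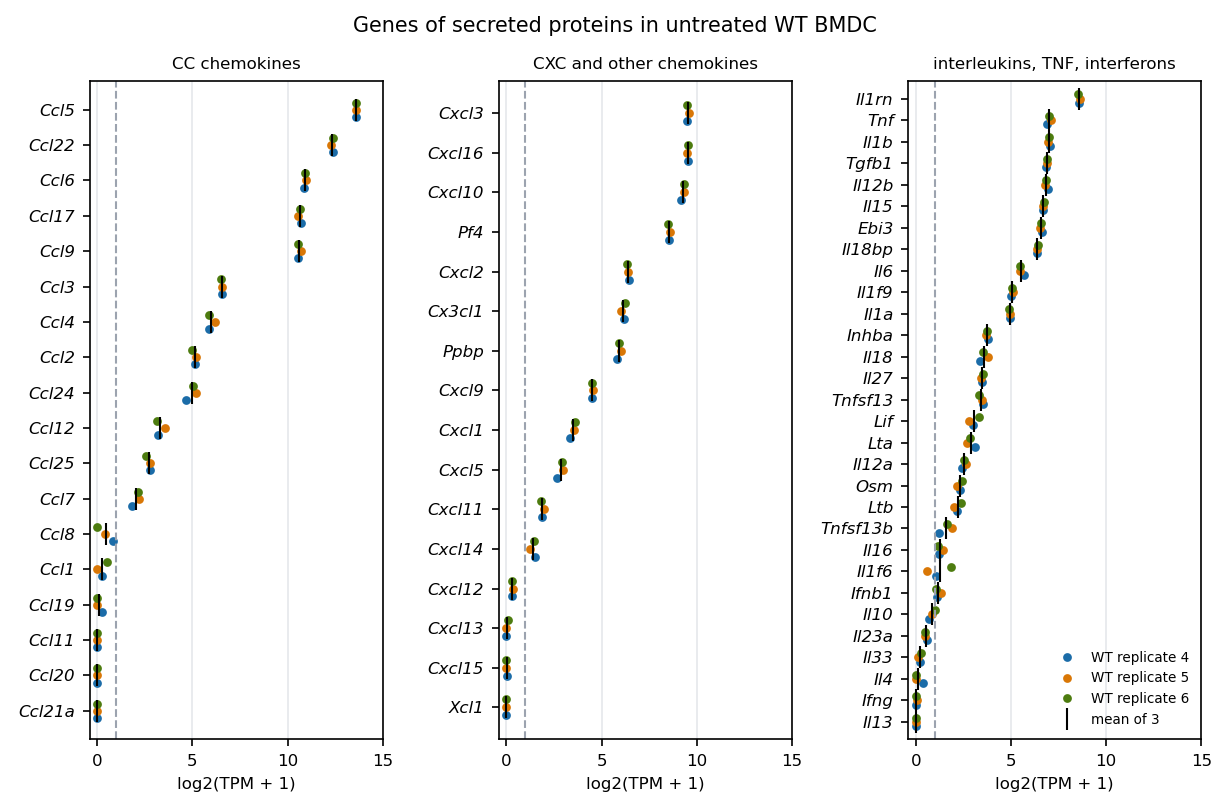
Chemokine and cytokine genes in untreated WT BMDC as log2(TPM + 1), with 1 point for each of 3 libraries, a bar for the mean and a dashed line at 1 TPM. Ccl5 at 12277 TPM stood far above the highest CXC gene, Cxcl3 at 733 TPM, and the highest interleukin-family gene, Il1rn at 381 TPM.

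Metabolic genes were detected most fully, 190 of 200 (95%), against 80.5% of all list genes and 48.6% of all protein-coding genes. Of the glycolysis list, Gapdh had 1284, 1223 and 1317 TPM, Aldoa 1032, 1006 and 1068 TPM and Pkm 630.1, 601 and 641 TPM, all enzymes of the pathway, with replicate 5 lowest in each. The glucose transporter genes differed widely, and Slc2a6, a lysosomal transporter, had 503, 501 and 514 TPM, against 34.8 ± 2.62 for Slc2a1 (GLUT1) and 0.663 ± 0.433 for Slc2a3 (GLUT3). Of the hexokinases, Hk3 exceeded Hk2 by 4.10 ± 0.515-fold. The pentose phosphate enzymes Pgd, Taldo1, Tkt and G6pdx had 731 ± 20.4, 425 ± 2.63, 357 ± 7.91 and 256 ± 4.12 TPM. All 28 genes of the tricarboxylic acid cycle and its feeders were detected at moderate levels, led by Idh1 with 176 ± 3.13, Mdh2 with 169.6 ± 2.77, Cs with 139.6 ± 0.734 and Sdha with 125 ± 1.59 TPM.

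Genes of lipid handling were higher than those of lipid synthesis. Fabp5, a fatty acid carrier, had 1038, 921 and 1012 TPM and Lpl, lipoprotein lipase, had 912, 1021 and 915 TPM. The lysosomal genes Npc2 and Lipa had 677 ± 9.70 and 612 ± 25.7 TPM. The regulator Pparg had 3.06 ± 0.479 TPM and Dgat2, which makes triglyceride, 2.34 ± 0.373 TPM. Of the synthesis list only Elovl1 exceeded 100 TPM, with 145 ± 1.66 TPM, ahead of Scd2 with 34.3 ± 0.985, Srebf1 with 31.5 ± 2.88 and Fasn with 31.4 ± 2.85 TPM. Fatty acid oxidation was led by Acadl with 102 ± 0.836 TPM, Etfa with 85.8 ± 2.51, Hadha with 72.5 ± 1.46 and Etfb with 64.2 ± 1.83 TPM, and its regulator Ppara was not detected, with 0.0167 ± 0.0289 TPM. All 18 cholesterol synthesis genes were detected, against 48.6% of all protein-coding genes. They were led by Idi1 at 440.5 ± 2.50, Fdps at 182 ± 8.64, Hmgcs1 at 148 ± 4.64 and Msmo1 at 94.4 ± 5.01 TPM.

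Amino acid and immune-linked metabolism showed a wide contrast. Acod1, which makes itaconate, had 1677, 1813 and 1704 TPM and Ass1, which rebuilds arginine from citrulline, had 1137, 1152 and 1169.9 TPM. Nos2, inducible nitric oxide synthase, had 23.1, 21.5 and 21.9 TPM and Arg1, arginase 1, had 0.2, 0.51 and 0.27 TPM, below 1 in every library. Acod1 exceeded Nos2 by 78.3 ± 5.86-fold. The amino acid exchanger chains Slc3a2 and Slc7a11 had 394 ± 9.35 and 164 ± 6.05 TPM. Ido1 and Ido2, which break down tryptophan, had 2.66 ± 0.265 and 5.58 ± 0.791 TPM.

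Beyond ferritin, some iron genes and most redox genes were also high. A mean of 100 TPM or more was reached by 5 of 12 iron genes, ferritin included, and by 19 of 21 redox genes. Of all 21899 protein-coding genes, 1360 reached that level. Hmox1, which frees iron from heme, had 968, 980.0 and 949 TPM and Ncoa4, the receptor for ferritin breakdown, had 346, 353 and 350.2 TPM. Slc11a1, the phagosomal metal transporter, had 112 ± 2.14 TPM. The importer Tfrc and the exporter Slc40a1 were low, with 11.6 ± 0.593 and 10.5 ± 0.361 TPM. All 21 redox genes were detected, against 48.6% of all protein-coding genes. They were led by Prdx1, Prdx5 with 1819.8 ± 44.9 TPM, Gpx1 with 1219.8 ± 22.8 TPM and Cyba, a chain of the phagocyte oxidase, with 1150.3 ± 21.5 TPM. Its partner Cybb had 914 ± 34.5 TPM. Of the eicosanoid genes, Alox5ap had 118 ± 1.70 TPM, Ptges3 85.8 ± 1.33, Tbxas1 51.5 ± 1.42 and Ltc4s 44.5 ± 5.90 TPM, while Alox5, the enzyme that Alox5ap serves, had 1.86, 1.62 and 2.07 TPM.

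The 3 libraries were close to each other but not the same. The lowest Pearson correlation between a pair, on log2(TPM + 1) over protein-coding genes, was 0.998. Chi-square per degree of freedom of the rounded counts was 2.26 for replicates 4 and 6, and 3.41 and 3.70 for the pairs with replicate 5, where 1 is what counting error alone gives, so the 3 libraries differed by more than counting error. Such intervals and floors of counts cover counting error only. Over 7079 protein-coding genes with a mean of 10 TPM or more, the median coefficient of variation over the 3 libraries was 3.95%. The full coefficient from counting error at these depths had a median of 2.55%. A median over 3 values tends to lie below the full coefficient, so these are not like for like. The median over the 3 libraries was 5.11% for genes of 10 to 30 TPM and 2.25% for genes of 300 to 1000 TPM.

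The genes of largest spread in TPM were, for the most part, steady in counts. Of 56 genes with a coefficient of variation above 20%, 38 had one under 10% in CPM, the expected counts scaled to the library total with no length. Zfp236, a zinc finger gene, had 33.0, 15.8 and 14.9 TPM, a coefficient of variation of 48.0%, with 1755, 1845 and 1439 expected counts and 3.86% in CPM, while its effective length was 2639, 5312 and 5416 bases. The effective length of a gene is an average over its isoforms by their estimated shares, so a change in those shares moves TPM with no change in counts. Vps45, a membrane-fusion factor, had 10.9, 20.4 and 12.5 TPM with 6.74% in CPM, and Zfp950 had 1.69%, Mrs2, a mitochondrial magnesium channel, 3.22% and Bdh1, a ketone body enzyme, 1.22%. Tle6 and Acbd4 varied in both counts (16.4% and 14.6%) and length (16.4% and 15.1%). Gm36079 and Polr2i, an RNA polymerase II subunit, varied in counts by 33.0% and 30.4% at steady length. The gene with the largest spread, AL731706.2, rested on 3.79, 0 and 0.90 expected counts at an effective length of 7.39, 8.09 and 7.55 bases, with a mean of 10.7 TPM against the 22.2 TPM that 3 counts would give.

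**Figure D5:**
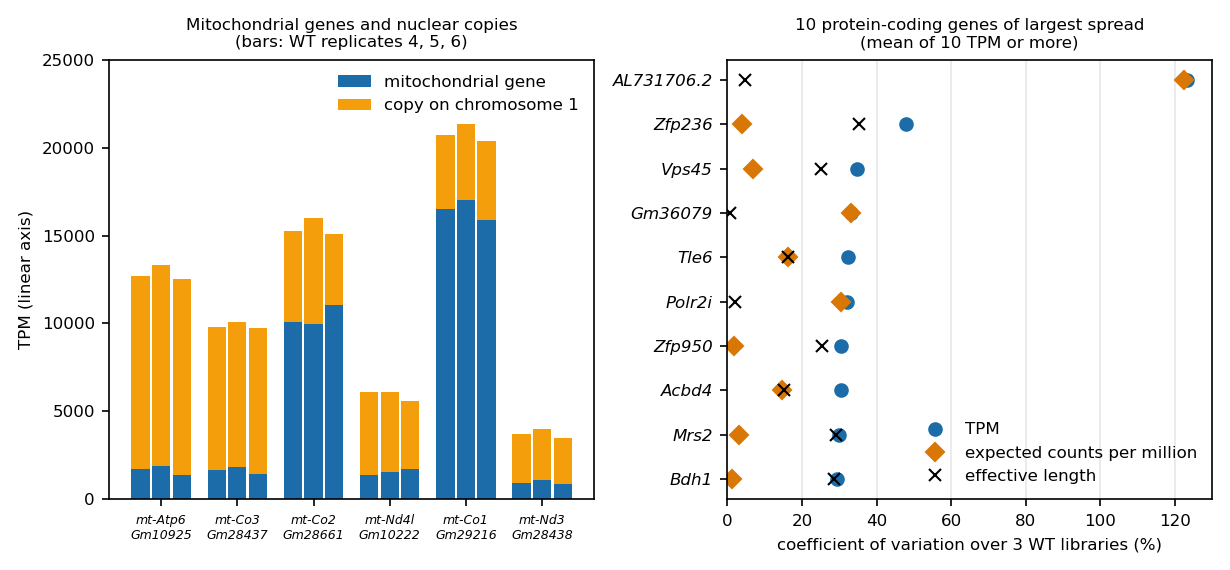
Left, TPM of 6 mitochondrial genes and of their chromosome 1 copies in each of 3 untreated WT libraries, stacked on a linear axis from 0. Right, coefficient of variation over the 3 libraries, in percent, of TPM, of CPM and of effective length for the 10 protein-coding genes of largest spread, where Zfp236 reached 48.0% in TPM but 3.86% in CPM.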

How the data were processed

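Bulk RNA-seq of 3 untreated WT libraries was used of the 12 in the series, and the groups came from the labels. Per the labels and the study's methods, the authors trimmed reads, aligned them to mm10 with STAR (2.6.0c in the submitters' processing notes) and quantified genes with RSEM. The deposited tables hold RSEM expected counts, TPM and FPKM per gene with the effective length, each made by the authors from 1 library. The annotation release was not given in the sources used here. Gene names, biotypes and coordinates were matched by identifier to GENCODE M21 on GRCm38 (55154 of 55335 listed genes, 54587 also in version).

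TPM was used as deposited. Libraries held 29907362, 32559096 and 26497569 expected counts (replicates 4, 5 and 6), and 3 counts were taken as the limit that a count of 0 allows. The mean, SD and coefficient of variation were computed over 3 libraries with pandas 2.3.3 and numpy 2.4.6, TMM factors with edgeR 4.0.16 in R 4.3.3 for an alternative only, and expected counts were rounded for the chi-square between libraries. The calculations were tested on simulated data. No test between groups was made.

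The members and lists were chosen with earlier results of these data known. The genes named were the 20 protein-coding and 5 non-coding genes of highest mean TPM with an effective length of 200 bases or more, the 4 highest of each list, genes below 1 TPM in every library on lists of other cell types, the 10 most variable protein-coding genes of 10 TPM or more and 13 genes listed by name (Ctcf, the GM-CSF receptor chains, Itgax, MHC class II chains, Tlr4, Il6, Il12a, Il12b and Tnf). Other genes were named after their values were seen. Some genes that the rule names are not reported here. Of 716 list symbols 714 were matched, Clec6a and Rn7sl1 were not, Mb21d1 was read as Cgas, and a symbol with 2 identifiers took the higher. Alternatives were other detection limits, FPKM, TMM, rescaling over nuclear protein-coding genes, leaving out short genes and leaving out each library, and 2 were added after seeing the data.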

Additional observations from a re-analysis of the deposited data

How the results depend on the processing

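The number of protein-coding genes detected was 10653 and lay between 8444 (5 TPM or more) and 11234 (0.5 TPM or more) under the 5 other settings, with 10710 to 10728 when a library was left out. The number of list genes detected was 575 and lay between 514 and 595, with 576 to 577 when a library was left out. All of these stayed within 1.5 times the reported count. The share of TPM in the 10 highest genes was 15.6% and moved by more than its SD to 14.3% over nuclear protein-coding genes alone, to 15.1% without genes of effective length under 200 bases and to 8.98% as a share of expected counts. Alternatives chosen after seeing the data gave 16.7% with the chromosome 1 copies summed with their mitochondrial genes and 16.3% with short genes also left out. Both include the upper value of mt-Co1. Leaving out a library gave 15.5% to 15.7%. The median coefficient of variation of 3.95% became 5.22% for genes of 1 TPM or more and, in an alternative chosen after seeing the data, 3.2% in CPM (expected counts scaled to the library total with no length). It was 2.97% to 3.55% when a library was left out, lowest without replicate 5. With fewer samples the estimate itself is less sure. A median coefficient of variation over fewer values also tends to lie lower by itself, so these values cannot be set against 3.95%. The cause was not tested. No contrast was made, so no direction could change, but the order of the highest genes did. Tmsb4x and mt-Co1 changed places without replicate 4 and without replicate 6, and by share of expected counts mt-Co1 came first and Fth1 4th. With the copies summed, Ccl5 came 10th of all genes, and 9th with short genes also left out. Of 221 named genes, 202 moved by more than 1 SD in FPKM, where each library has 0.673 to 0.675 FPKM per TPM. Genes under about 3 counts in a library are limited by depth. No paired analysis was possible because the 3 libraries form 1 group and no test between groups was made.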

Other observations

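Genes of cell division were detected but low. All 18 proliferation genes reached 1 TPM in every library, against 48.6% of all protein-coding genes, with a median of 13.3 TPM. Pcna, the DNA polymerase clamp, had 155, 170.1 and 162 TPM, and Stmn1, Hmgb2 and Tyms had 37.9 ± 1.76, 36.2 ± 0.447 and 25.5 ± 1.70 TPM (SD, n = 3). Among long noncoding RNAs, Neat1, the scaffold of paraspeckles, had 593, 566 and 588 TPM, above Malat1 with 246 ± 7.08, Gas5 with 171 ± 9.17 and Mir155hg, the host transcript of miR-155, with 62.9 ± 4.31 TPM. Kcnq1ot1 and Meg3 were below 1 TPM in every library. Tpt1, a translationally controlled protein gene, had 3369 ± 78.5 TPM.

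Genes of the Y chromosome were detected in all 3 libraries, with Eif2s3y at 63.5, 59.4 and 59, Ddx3y at 32.4 ± 0.741, Kdm5d at 10.9 ± 0.878 and Uty at 10.9 ± 0.196 TPM. Xist, the RNA that coats the silent X chromosome, had 0.11, 0.17 and 0.07 TPM.

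Genes listed for RNAs that mostly lack a poly(A) tail were detected in 7 of 13 cases (53.8%), near the 48.6% of all protein-coding genes. Whether the histone transcripts counted here carried a tail was not tested. The histone genes Hist1h1c and Hist1h2bc had 66.2 ± 1.26 and 31.8 ± 2.26 TPM, Rn7sk, a regulator of RNA polymerase II, had 23.8 ± 1.43 TPM and Hist2h2aa1 had 9.69 ± 0.869 TPM. The study's methods name poly(A) selection and the labels name depletion of ribosomal RNA, and which of them was used for these libraries was not settled here.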
